A study of Mus musculus with 24 samples.

Results

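Multipotent progenitors (MPP) and haematopoietic stem cells (HSC) from the bone marrow of normal control mice were compared across all genes. The libraries were taken from the labels as the 4 MPP and the 4 HSC libraries of control mice, 8 of the 24 libraries of the series, and no measured value was used to choose them. The study sequenced RNA from HSC, MPP and HPC-1 cells, a more restricted progenitor population, sorted from 4 mice with intact Phf6 and from 4 mice in which Phf6, an X-linked gene for a chromatin-associated PHD-finger protein, had been deleted. The HSC and MPP libraries were made with the SMART-Seq v4 low-input kit and Nextera XT, whereas the HPC-1 libraries came from another kit and were not analysed here.

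The control mice carried intact Phf6 per the labels, were untreated as far as the labels say, and their age was not given. The strain field reads Phf6lox/Y;Tie2-creTg/+ for both genotypes, which leaves it unstated if the control animals also carried the Tie2-cre transgene, whose driver is active in endothelial and haematopoietic cells. The deleted mice, used only in the last comparison, carry the same strain field with the status deleted. A replicate number stands for a single mouse, so HSC and MPP number 1 came from the same animal, and control and deleted mice of equal number shared a litter. Cells were taken from crushed femurs, tibias, hips and spine, depleted of cells bearing CD3, B220, GR1 or TER119, and sorted with antibodies to KIT, SCA1, CD150 and CD48. The labels do not spell out the gates. In bulk libraries of this kind, fewer cells of a type and less RNA per cell cannot be told apart.

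HSC are the rare marrow cells that can renew themselves and rebuild every blood lineage after transplantation, and most of them divide seldom. MPP lie just downstream: they still give rise to many lineages but have lost lasting self-renewal, and they are commonly separated from HSC by loss of CD150. Some HSC carry transcripts of the megakaryocyte and platelet lineage, while a part of the MPP compartment is marked by the cytokine receptor FLT3 and leans towards lymphoid and myeloid fates.

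Library totals were 9658167 to 15413407 counts in HSC and 12385465 to 22133635 in MPP, and levels below are CPM (read counts divided by the library total and multiplied by 1e+06) on library sizes scaled by the trimmed mean of M-values. The number of genes with at least 1 count was 15421 ± 320.1 (SD, n = 4) in HSC and 15993 ± 43.0 in MPP (exact permutation test, two-sided, p = 0.0286, the smallest that 4 against 4 libraries allow, adjusted p = 0.143 over 5 library measures). After thinning every library to 9658167 counts the means were 15302 and 15726 (exact permutation p = 0.0571). The mitochondrially encoded share was 2.78% ± 0.23 in HSC and 1.97% ± 0.70 in MPP (exact permutation p = 0.114). Along the leading principal component, which held 36.7% of the variance, MPP lay between 28.48 and 39.16 and HSC between -41.81 and -24.25. Along the second, with 18.2%, the HSC of mouse 1 lay at -43.57. The HSC and MPP of mouse 3 lay on the other side at 42.16 and 25.87, and the rest between -12.01 and 0.765. The HSC library of mouse 1 stood apart in bone transcripts. It held 122 CPM of the osteoblast gene Bglap, 224 of Col1a1 and 424 of Col1a2, against at most 0.249, 0.528 and 8.39 CPM in the other 7 libraries.

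The sort markers were checked against the labels and are no finding. Slamf1, which encodes CD150, was at 53.4, 65.8, 88.6 and 67.5 CPM in the HSC of mice 1 to 4 and at 2.0, 2.82, 1.51 and 1.41 in the MPP of the same mice. Its level was lower in every MPP library than in every HSC library, and CD150 was among the sorted antigens. Kit, with means of 893 and 1022 CPM, and Cd48, with means of 15.2 and 28.4, did not pass the test (edgeR adjusted p = 0.527 and 0.394), whereas Ly6a, which encodes SCA1, was higher in MPP at a log2 fold change of 0.99 ± 0.14 (SE, adjusted p = 0.000884). Ptprc, whose B220 form was a depletion marker, was higher too, at 0.59. Cd3e was at 0 counts in all 8 libraries. Phf6 itself was at 188, 222, 246 and 225 CPM in HSC and 199.7, 176, 235 and 188 in MPP, ranges that overlap (adjusted p = 0.587), so all 8 libraries carried Phf6 transcript.

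To ask which genes separate the populations, 13636 genes were tested with edgeR's quasi-likelihood test and Benjamini-Hochberg adjustment at 0.05. In MPP, 553 genes were higher (4.06%) and 652 lower (4.78%) than in HSC, 8.84% of the genes in all. Genes of megakaryocytes and platelets, of the GATA programme and of the cell cycle were among the lower ones, and genes of lymphoid priming and several cytokine receptors among the higher ones. A change of more than 1 on the log2 scale was seen for 234 of the higher and 325 of the lower genes, and one of more than 2 for 66 and 102. All 553 higher genes were higher in each of the 4 mice, and 649 of the 652 lower genes were lower in each. These genes were called from the same libraries, which favours such agreement, so it is no separate support. With the mouse as a block, 1008 genes were higher (7.39%) and 1101 lower (8.07%), and these included 551 and 644 of the genes above. The shares with and without the block are to be set beside the list counts below. A fit that also took in the 8 libraries of deleted mice, so that the spread was shared, called 189 and 211. Without both libraries of mouse 1, an alternative chosen after seeing the data, 429 were higher and 451 lower. No other mouse was left out as a pair. The plot of difference against level shows called genes over most of the range of levels.

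**Figure D1:**
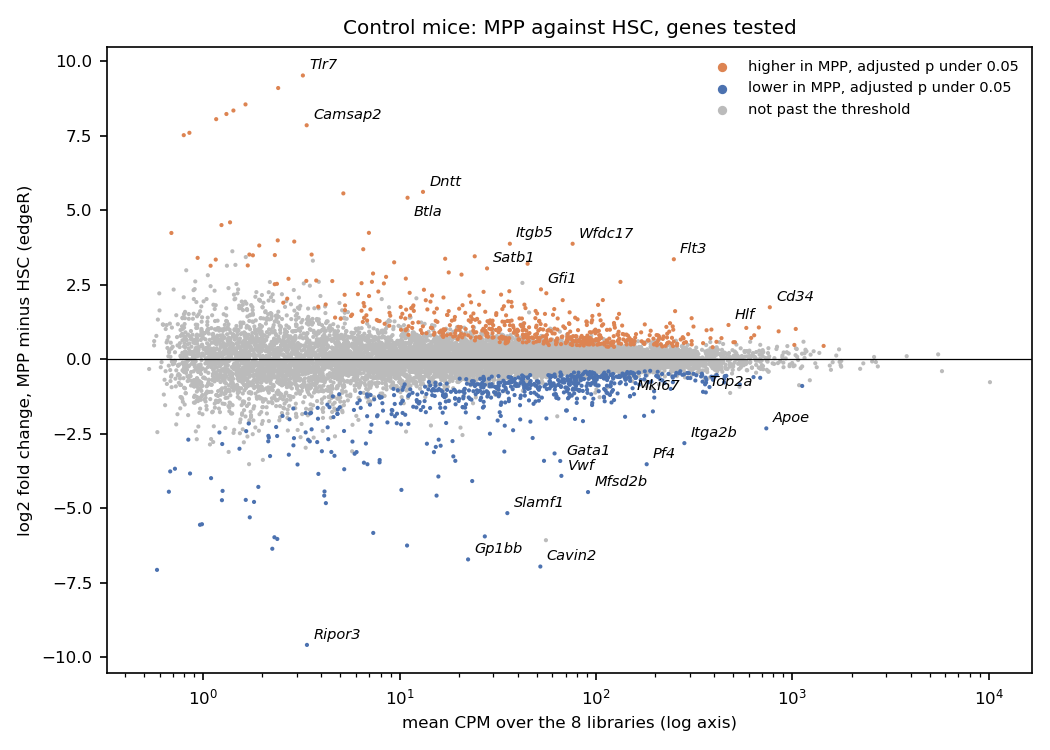
Each point is a gene tested in control mice, with its mean CPM over the 8 libraries on a log axis and its log2 fold change (MPP minus HSC) on the vertical axis. Orange and blue mark the 553 genes higher and the 652 lower in MPP at an edgeR adjusted p under 0.05, with Flt3 and Cd34 above and Itga2b, Apoe and Mfsd2b below zero at high levels.

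Megakaryocyte and platelet genes had the lowest median fold change of the lists described here. Of 29 megakaryocyte and platelet genes, 26 were tested, 17 were lower in MPP and 0 higher, with a median log2 fold change of -1.94 against -0.01 over all genes tested. The MPP value was below every HSC value for 17 of the 26, against 8.15% of all genes tested. Itga2b, which encodes the platelet integrin subunit CD41, was at 380.5, 565, 511 and 517 CPM in HSC and at 68.7, 70.0, 66.7 and 75.4 in MPP. Every MPP library thus held less than the lowest HSC library, and the log2 fold change was -2.81 ± 0.14 (SE, edgeR adjusted p = 1.83e-07). Vwf, the gene of von Willebrand factor, which tethers platelets to damaged vessels, was at 57.6, 184, 119 and 139.6 CPM in HSC and 5.92, 13.3, 7.42 and 6.66 in MPP (log2 fold change -3.91 ± 0.37, adjusted p = 9.1e-05). The HSC of mouse 1 had the least Vwf of the 4 HSC libraries, yet more than any MPP library. Pf4, the chemokine of platelet alpha granules, was at 311, 592, 201 and 229 CPM in HSC and 32.1, 42.5, 27.2 and 14.2 in MPP (log2 fold change -3.52 ± 0.43, adjusted p = 0.00114).

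The 4 genes of the platelet receptor for von Willebrand factor all fell. Gp1bb was at 37.1, 55.5, 41.5 and 42.8 CPM in HSC and 0.686, 0.783, 0 and 0.313 in MPP, 2207 against 25 counts in all. Gp5 went from 61.7, 63.7, 67.4 and 51.6 CPM to 7.86, 9.95, 4.54 and 6.42, and Gp9 from 74.9, 86.9, 67.6 and 70.8 to 21.2, 19, 11.3 and 19.1. Their log2 fold changes were -6.72 ± 0.51, -3.1 ± 0.23 and -2.09 ± 0.2, and that of Gp1ba was -2.7 ± 0.38 (adjusted p from 7.8e-06 to 0.000693). No MPP library reached the lowest HSC library for any of the 4. Treml1, a receptor of platelet granules, fell by 4.58 ± 0.25 on the log2 scale (adjusted p = 3.78e-07). Both thrombin receptor genes of the list fell too, F2r by 1.9 ± 0.19 and F2rl2 by 2.94 ± 0.39 (adjusted p = 6.56e-05 and 0.000486). Itgb3, the partner of CD41, varied more, at 27.8, 86.9, 135 and 79.1 CPM in HSC and 6.86, 5.88, 28.9 and 10.3 in MPP. The HSC of mouse 1 overlapped the MPP of mouse 3 for Itgb3, and the adjusted p was 0.0417, or 0.000335 with the mouse as a block.

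Not every platelet gene passed the test. Selp, which encodes P-selectin, had a difference of -0.29 ± 0.32 (adjusted p = 0.667). Gp6, the platelet collagen receptor gene, was at 0 counts in all 8 libraries. Without mouse 1, 17 of the listed genes were again lower in MPP. Outside the list, Cavin2, which encodes a coat protein of caveolae, fell furthest among genes with at least 5 CPM in HSC and counts in both populations, from 74.3, 146, 87.7 and 106 to 1.19, 0.313, 0.916 and 0.784 CPM. Its log2 fold change was -6.96 ± 0.33 (adjusted p = 1.5e-07). Mfsd2b, the sphingosine-1-phosphate exporter of red cells and platelets, went from 152, 188, 186 and 170.4 CPM to 6.86, 7.36, 6.0 and 11.8 and shared the lowest adjusted p of the table, 1.5e-07.

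**Figure D2:**
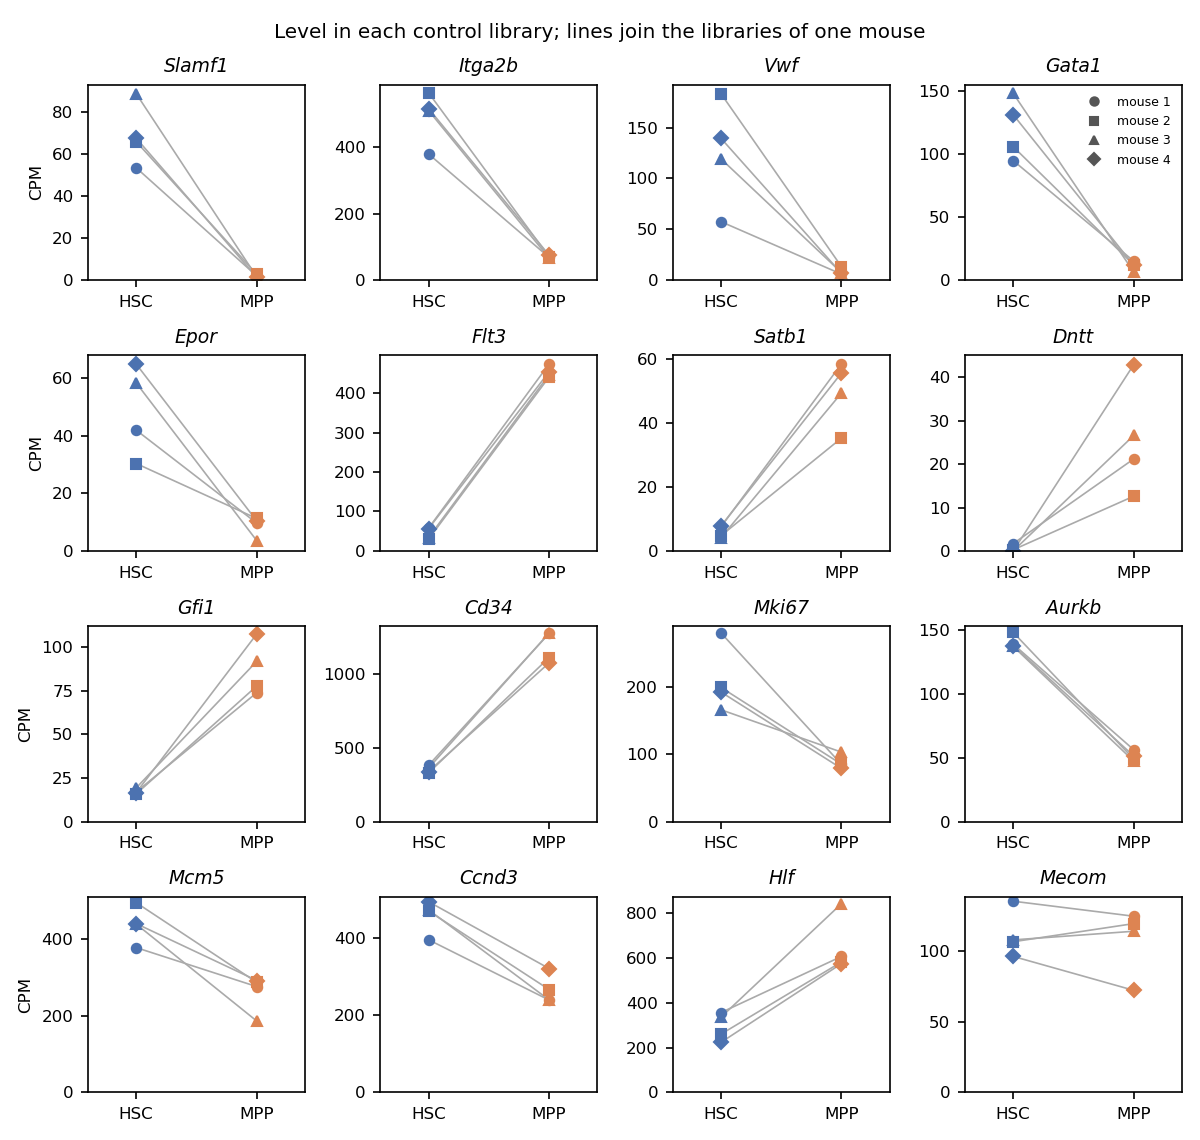
CPM of 16 genes in each control library, with a line joining the HSC and MPP of the same mouse and a symbol for each mouse; every panel starts at 0. Slamf1, Itga2b, Vwf, Gata1, Epor, Mki67, Aurkb, Mcm5 and Ccnd3 are lower and Flt3, Satb1, Dntt, Gfi1, Cd34 and Hlf higher in MPP in all 4 mice, and Mecom overlaps.

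GATA factors drive both the megakaryocyte and the erythroid lineage. Of 20 GATA and early erythroid genes tested, 8 fell and 2 rose in MPP, where 4.78% and 4.06% of all genes tested did. The median log2 fold change was -0.05, or -0.24 with 7 lower and 1 higher without mouse 1. The mean log2 difference over the list was 0.03, 0.01, -0.81 and -0.83 in mice 1 to 4, so mice 1 and 2 differed from mice 3 and 4. Gata1, the master regulator of both lineages, was at 95, 106, 148 and 131 CPM in HSC and 15.1, 12.1, 6.41 and 11.8 in MPP. No MPP library came near an HSC library, and the log2 fold change was -3.41 ± 0.25 (adjusted p = 5.94e-06). Gata2, the family member known for its role in stem cells, stayed abundant in both, at 545, 518, 503 and 420.1 and 283, 294, 238 and 226 CPM (log2 fold change -0.93 ± 0.13, adjusted p = 0.000693). Gfi1b, a repressor of the same lineages, fell by 1.93 ± 0.16 (adjusted p = 1.34e-05).

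Epor, the erythropoietin receptor, was at 42, 30.4, 58.5 and 65 CPM in HSC against 9.66, 11.3, 3.57 and 10.4 in MPP. Apoe, which encodes a lipid carrier, was at 815, 1166, 1471 and 1453 against 190.3, 229, 273 and 290.5. Both were lower in every MPP library, by log2 fold changes of -2.5 ± 0.34 and -2.32 ± 0.2 (adjusted p = 0.000583 and 2.13e-05). Icam4, Aqp1 and Tal1 also fell, with log2 fold changes of -1.62, -2.02 and -0.56. The 2 genes that rose were Cnrip1 (0.98 ± 0.19) and Trib2, a pseudokinase gene (1.33 ± 0.28). Klf1, the erythroid factor that follows Gata1, overlapped between populations at 19.3, 22.9, 30.3 and 66.1 CPM in HSC and 24.4, 26.5, 4.58 and 30.8 in MPP (adjusted p = 0.543). Erythroblast markers were low in all libraries, with summed levels of 46.0 to 124 CPM in HSC and 22.6 to 111 CPM in MPP, and 0 of 10 passed the test.

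Lymphoid priming is the early, low-level expression of lymphoid genes in cells that are not yet committed. Of 38 genes of this list, 29 were tested, 12 rose and 1 fell in MPP, and the median log2 fold change was 0.78. With the mouse as a block 16 rose. The MPP were above every HSC library for 14 of the 29, against 7.45% of all genes tested. Flt3, the receptor that marks lymphoid-primed progenitors, was at 57.6, 29.7, 33.8 and 56.4 CPM in HSC and 474, 441, 447 and 454 in MPP. The MPP libraries were nearly alike and far above the HSC, and the log2 fold change of 3.36 ± 0.21 had the lowest adjusted p of all higher genes (1.43e-06). Satb1, a chromatin organiser of lymphoid cells, was at 7.52, 4.75, 4.09 and 7.76 CPM in HSC and 58.5, 35.3, 49.4 and 55.7 in MPP (log2 fold change 3.05 ± 0.26, adjusted p = 1.88e-05). Dntt, which encodes the terminal transferase of antigen receptor joining, was almost restricted to MPP, at 1.69, 0.264, 0 and 0 CPM in HSC against 21.2, 12.6, 26.6 and 42.9, or 27 against 1630 counts (log2 fold change 5.62 ± 0.88, adjusted p = 0.00284).

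A lymphoid surface receptor and several transcription factors rose too. Cd27, a receptor of the tumour necrosis factor family, was at 168, 149.7, 148 and 149.5 CPM in HSC and 247, 235, 265 and 309.6 in MPP. The populations did not overlap (log2 fold change 0.78 ± 0.12, adjusted p = 0.00132). Among transcription factors, Sox4 rose by 1.1 ± 0.12 (adjusted p = 9.5e-05), Runx2 rose by 0.93 ± 0.22 (0.0168) and Ikzf1, the gene of IKAROS, by 0.7 ± 0.14 (0.00625). Lax1, Gpr171, Cnn3 and Lsp1 also rose, at log2 fold changes of 1.52, 1.17, 1.22 and 0.64. Mef2c, a factor that is also required for early lymphoid genes, went the other way, from 461, 439, 412 and 281 CPM in HSC to 261, 239.8, 274 and 196 in MPP (log2 fold change -0.71 ± 0.16, adjusted p = 0.0149). It did not pass without mouse 1.

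Several genes of committed lymphocytes had no counts. Il7r, Rag1, Ebf1, Pax5, Lef1 and Ikzf3 were at 0 counts in all 8 libraries, and Rag2 had 1 count in HSC and 23 in MPP. Whether a gene at 0 in every library, here or elsewhere in the text, could be counted at all was not tested. Ighm, the immunoglobulin mu locus, which early progenitors can transcribe before rearrangement, was at 32, 8.17, 3.17 and 5.21 CPM in HSC and 109, 69.7, 39.6 and 71.3 in MPP. Every MPP library was above every HSC library, yet the unpaired test did not call it (log2 fold change 2.56 ± 0.73, adjusted p = 0.0791), and with the mouse as a block the adjusted p was 0.000408. Of 14 B and plasma cell markers, 4 were tested and 0 passed, and their summed level was 40.0 to 76.0 CPM in HSC and 87.5 to 159 in MPP. T and NK cell markers summed to 24.3 to 33.6 CPM in HSC and 43.6 to 73.7 in MPP, of which Lck, a kinase of T-cell receptor signalling, was the member that rose (1.13 ± 0.21, adjusted p = 0.0045), with Cd3e, Cd3g and Cd8a at 0.

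Some granulocyte and monocyte genes were higher in MPP. Of 31 tested, 7 rose and 0 fell, with a median log2 fold change of -0.02, or 0.36 without mouse 1. With the mouse as a block 7 rose and 2 fell, and 3 rose without the MPP library of mouse 4. Gfi1, a repressor required for neutrophil and lymphoid development, was at 17, 15.9, 19.4 and 16.6 CPM in HSC and 73.9, 77.7, 91.8 and 108 in MPP. The lowest MPP library was far above the highest HSC library (log2 fold change 2.35 ± 0.16, adjusted p = 4.28e-06). Cebpa, the factor that opens the granulocyte programme, was close to absent from HSC at 0.0703, 0, 0.792 and 0.612 CPM, or 19 counts, and at 2.37, 3.13, 5.45 and 6.11 CPM in MPP (log2 fold change 3.5 ± 0.83, adjusted p = 0.0185). Spi1, the gene of PU.1, was well expressed in both and rose by 0.5 ± 0.13 (adjusted p = 0.0305). Plac8 and Mgst1 rose by 1.17 and 1.29, and the receptor genes Csf3r and Csf2rb, described with the cytokine receptors, complete the 7.

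The granule genes overlapped between the populations. Mpo, the myeloperoxidase gene, was at 315, 74.4, 19 and 249 CPM in HSC and 183, 148, 39.6 and 264 in MPP, and Elane, the elastase gene, at 153, 45.2, 7.4 and 147 and 57.7, 49.2, 3.94 and 118. Mouse 3 was lowest in both populations for both genes (adjusted p = 0.983 and 0.816). Transcripts of mature neutrophils and monocytes were present in every library. The 16 markers summed to 9020, 4380, 1200 and 4460 CPM in the HSC of mice 1 to 4 and to 3200, 3670, 667 and 3310 in their MPP, so HSC held more in each mouse. Of the 16, 0 passed the test and 8 fell with the mouse as a block, with S100a8 at 228 to 2691 CPM in HSC and 75.3 to 1008 in MPP. Their part in the myeloid results was not tested.

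Several cytokine receptors were higher in MPP. Of 30 tested, 10 rose and 2 fell, and the median log2 fold change was 0.18. Among all genes tested 4.06% rose and 4.78% fell, so the count of 2 lower is near that share. Besides Flt3, the largest rise was that of Il1r1, the signalling receptor of interleukin 1, at 16.4, 17.8, 7.66 and 7.45 CPM in HSC and 74.1, 53, 49.4 and 63.9 in MPP (log2 fold change 2.28 ± 0.29, adjusted p = 0.000357). All MPP libraries lay above all HSC libraries. Il18r1, the interleukin 18 receptor, rose by 1.68 ± 0.45 (adjusted p = 0.0337). Both chains of the interferon gamma receptor rose, Ifngr1 by 0.7 ± 0.14 and Ifngr2 by 1.14 ± 0.16 (adjusted p = 0.00832 and 0.000827). So did both chains of the type I interferon receptor, Ifnar1 by 0.51 ± 0.15 and Ifnar2 by 0.6 ± 0.14 (adjusted p = 0.0479 and 0.0168).

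Chains shared between several cytokine receptors rose as well. Il2rg, the common gamma chain, was at 196, 120.1, 177 and 132 CPM in HSC and 295, 320.2, 424 and 303 in MPP, and Csf2rb, the common beta chain of the interleukin 3 family, at 34.6, 15.3, 20.6 and 31.9 and 47.3, 44.8, 65.7 and 70.2. Their log2 fold changes were 1.1 ± 0.17 and 1.15 ± 0.25 (adjusted p = 0.00155 and 0.0123). Csf3r, the receptor of granulocyte colony-stimulating factor, was at 153, 124, 190.3 and 183 CPM in HSC and 217, 228, 407 and 386 in MPP (log2 fold change 0.93 ± 0.22, adjusted p = 0.0165). Tek, the angiopoietin receptor associated with quiescent HSC, and Epor were the 2 that fell, Tek from 81.7, 92.6, 79.6 and 77.8 to 55.4, 49.8, 46.3 and 32 CPM (log2 fold change -0.85 ± 0.17, adjusted p = 0.00625).

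Most genes of cell division were lower in MPP. Of 62 genes of the G2 and M phases, 56 fell and 0 rose, the median log2 fold change was -1.07, and no member had a value above 0. This direction is opposite to the description above of HSC as cells that mostly divide seldom. The reason was not tested, and the gates are not given. The list summed to 7730, 7650, 6860 and 7060 CPM in the HSC of mice 1 to 4 and to 3970, 3460, 4070 and 3460 in their MPP. Aurkb, the kinase of the chromosomal passenger complex, was at 139, 148, 137 and 138 CPM in HSC and 56.2, 49, 47.4 and 51.3 in MPP. The spread within each population was small beside the difference (log2 fold change -1.46 ± 0.12, adjusted p = 1.18e-05). Mki67, the proliferation antigen, was at 280.3, 199, 166 and 192 CPM in HSC and 85.1, 85.3, 103 and 79 in MPP (log2 fold change -1.25 ± 0.16, adjusted p = 0.00045). Cdk1, the mitotic kinase, was at 154, 151, 132 and 181 and 66.2, 72.5, 60.5 and 59.8 CPM (log2 fold change -1.26 ± 0.13, adjusted p = 9.17e-05).

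Mitotic cyclins, motors and checkpoint genes moved in the same direction. Ccna2, Ccnb1 and Ccnb2 had log2 fold changes of -1.2, -1.03 and -0.81. Ube2c, which charges the anaphase-promoting complex, had the lowest value of the list at -1.72 ± 0.14 (adjusted p = 1.46e-05), and Kif11, the spindle motor, stood at -1.41 ± 0.13. Foxm1 and Mybl2, transcription factors of the late cycle, fell by 1.19 ± 0.21 and 1.25 ± 0.25 (adjusted p = 0.00275 and 0.00675). A further 6 members did not pass. The mean difference over the list was -0.97, -1.17, -0.84 and -1.09 in mice 1 to 4. Without mouse 1, 51 members fell.

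Genes of DNA replication were lower as well. Of 45 tested, 29 were lower and 0 higher, with a median log2 fold change of -0.60. With the mouse as a block 36 were lower, and without mouse 1 there were 22, with a median of -0.61. Without the MPP library of mouse 1 alone 19 were lower, and without the HSC library of mouse 2 there were 18. Mcm5, a subunit of the replicative helicase, was at 377, 494, 439 and 439.8 CPM in HSC and 276, 287, 186 and 292 in MPP. The populations did not overlap (log2 fold change -0.75 ± 0.15, adjusted p = 0.00747). Mcm2 overlapped, at 282, 386, 385 and 416 and 233, 252, 182 and 283 CPM, yet passed at -0.63 ± 0.16 (adjusted p = 0.0246), and Mcm6, at -0.33 ± 0.13, did not (adjusted p = 0.147). Pcna, the sliding clamp, fell by 0.47 ± 0.13 (adjusted p = 0.039), Tyms, which makes thymidylate, by 0.85 ± 0.11, and Orc1, the origin recognition subunit, by 1.09 ± 0.21 (adjusted p = 0.00591).

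Some genes of cycle entry were lower. Of 14 D and E cyclins, G1 kinases and their partners, 5 fell and 0 rose, or 3 and 0 without mouse 1. Ccnd3, a D cyclin, was at 397, 471, 474 and 496 CPM in HSC and 239.9, 267, 240.2 and 322 in MPP, and Ccnd2 at 426, 399.6, 414 and 374 and 290, 287, 296 and 281. Neither overlapped (log2 fold change -0.78 ± 0.13 and -0.48 ± 0.1, adjusted p = 0.00213 and 0.0101). E2f1, the S phase transcription factor, fell by 1.07 ± 0.15 (adjusted p = 0.000693), and Ccne2 and E2f3 were lower at log2 fold changes of -0.91 and -0.65. Cdk6, a kinase that governs exit from quiescence, was at 73, 122, 77 and 115 CPM in HSC and 55.8, 69.8, 55.2 and 92.5 in MPP and did not pass (adjusted p = 0.181, and 0.0182 with the mouse as a block).

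Among 18 CDK inhibitors and quiescence genes, 3 rose and 2 fell, or 6 and 2 with the mouse as a block and 2 and 0 without mouse 1. The shares of all genes tested were 4.06% and 4.78%, or 7.39% and 8.07% with the block. Cdkn1c, the imprinted inhibitor p57 that is known to hold HSC in quiescence, was at 59, 48, 43.4 and 36.1 CPM in HSC and 28.8, 37.1, 25.6 and 22.8 in MPP. The ranges met in mice 4 and 2, and the log2 fold change was -0.71 ± 0.2 (adjusted p = 0.0416). Cdkn2d, another inhibitor gene, fell by 0.56 ± 0.13 (adjusted p = 0.0184). Ypel3, Tob1 and Ccng2, genes linked to growth arrest, rose by 0.63 ± 0.11, 0.95 ± 0.24 and 0.73 ± 0.19. Cdkn1a and Cdkn1b, which encode p21 and p27, had means of 9.29 and 7.38 CPM in HSC and 7.27 and 9.23 in MPP and overlapped between populations (adjusted p = 0.586 and 0.657). Genes of homologous recombination and the Fanconi pathway were also lower, with 12 of 30 lower, 0 higher and a median of -0.59. Without mouse 1, 8 were lower, with a median of -0.62, and without its MPP library alone 7 were.

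**Figure D3:**
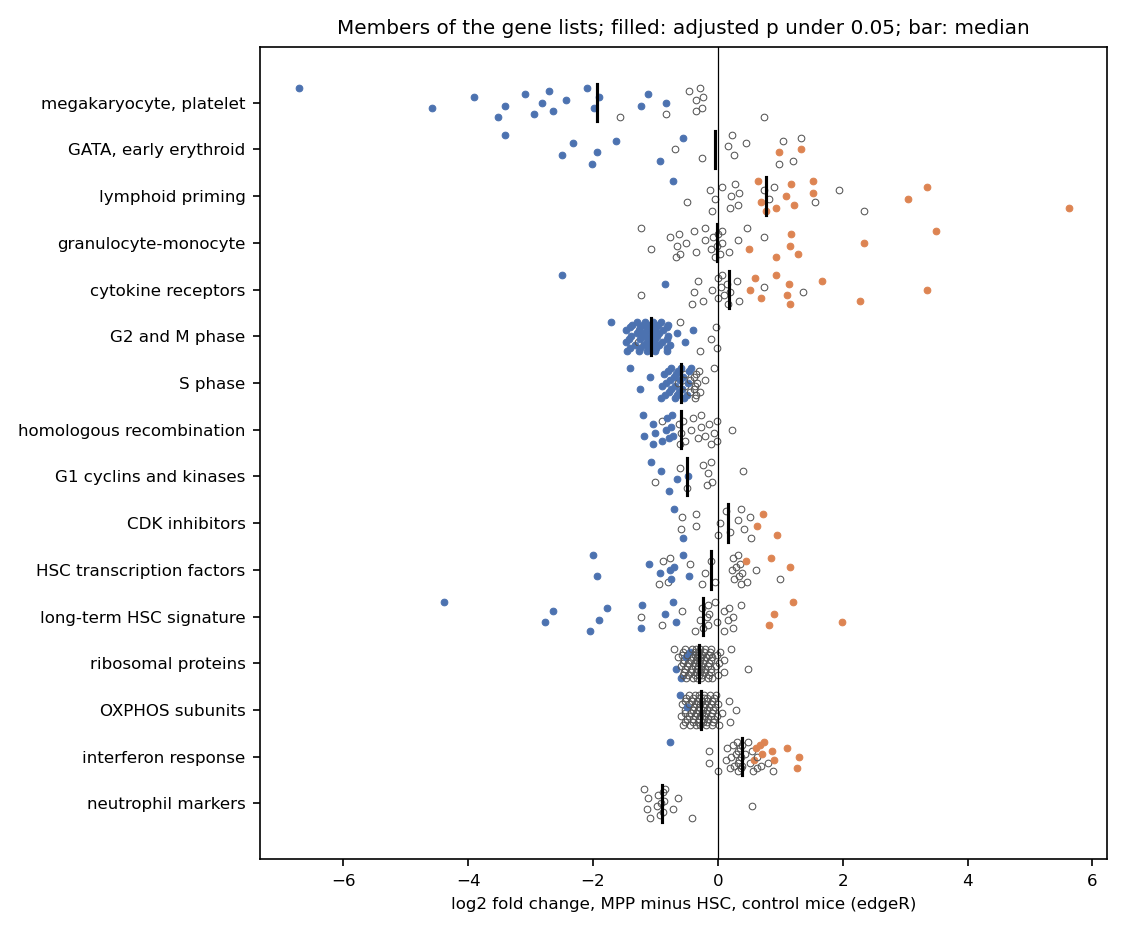
Log2 fold change (MPP minus HSC) of every tested member of 16 gene lists, 1 row a list, with filled points for an edgeR adjusted p under 0.05 and a black bar at the list's median. The G2 and M phase row lies left of 0 with a median of -1.07, the platelet row reaches furthest left with a median of -1.94, and the lymphoid priming row has a median of 0.78.

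The promoters of the cycle, platelet and GATA genes were searched for 5 kinds of short sequence word. RefSeq windows on GRCm38.p6 were found for 10377 of the 13636 genes tested, and the 250 bases upstream of the start were read on both strands. The E2F words TTTGGCGC, TTTCCCGC, TTTCGCGC and TTTGCCGC, alone or overlapping each other, occurred in 11 of 36 S phase genes with a window (30.6%) and in 4 of 53 G2 and M phase genes (7.55%) against 3.96% of all. The CHR word TTTGAA, the cell cycle homology region of late-cycle genes, was found in 19 of 53 G2 and M phase genes (35.8%) and 5 of 36 S phase genes (13.9%) against 13% of all. GATA words, AGATAA or TGATAA, were found in 7 of 16 GATA and early erythroid genes (43.8%) and 5 of 21 platelet genes (23.8%) against 11.5% of all. The CCAAT box was found in 22 of 36 S phase genes (61.1%), 33 of 53 G2 and M phase genes (62.3%), 6 of 21 platelet genes (28.6%) and 7 of 16 GATA genes (43.8%) against 40.7% of all. ETS words, CAGGAAG or ACCGGAAG, were found in 16.7%, 13.2%, 14.3% and 12.5% of these groups against 15.6% of all. No word of one kind contains a word of another. A match is a description of the letters and not a site of binding, and these shares were not tested.

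The following windows are shown because their genes fell in MPP and each holds the word of its group. All are the 250 bases before the RefSeq start, 5′ to 3′ in the direction of the gene, with the matching word in capitals. Orc1 (chr4:108579204-108579453, plus strand) and Mcm5 (chr8:75109259-75109508, plus strand) carry E2F words, and those of Mcm5 overlap. Ube2c (chr2:164769679-164769928, plus strand) and Kif11 (chr19:37376132-37376381, plus strand) carry the CHR word on the reverse strand within 29 bases of the start. Gp5 (chr16:30310782-30311031, minus strand), Gfi1b (chr2:28621983-28622232, minus strand) and Icam4 (chr9:21029182-21029431, plus strand) carry GATA words, of which Gp5 has 2.
Orc1: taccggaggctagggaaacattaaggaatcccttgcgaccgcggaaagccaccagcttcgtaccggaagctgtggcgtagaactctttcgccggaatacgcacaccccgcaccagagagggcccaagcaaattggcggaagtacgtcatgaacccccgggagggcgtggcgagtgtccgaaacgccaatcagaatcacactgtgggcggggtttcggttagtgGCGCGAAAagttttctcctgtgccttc
Mcm5: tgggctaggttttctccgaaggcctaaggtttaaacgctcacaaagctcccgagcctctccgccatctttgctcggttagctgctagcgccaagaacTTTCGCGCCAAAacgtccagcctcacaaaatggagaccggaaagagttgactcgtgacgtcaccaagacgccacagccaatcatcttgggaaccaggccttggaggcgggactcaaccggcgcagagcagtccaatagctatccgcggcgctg
Ube2c: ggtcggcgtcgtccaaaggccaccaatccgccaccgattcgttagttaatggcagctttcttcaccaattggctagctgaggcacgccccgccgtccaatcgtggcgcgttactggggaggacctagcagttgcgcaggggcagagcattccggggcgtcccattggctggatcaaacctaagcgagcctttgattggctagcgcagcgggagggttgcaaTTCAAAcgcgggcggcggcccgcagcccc
Kif11: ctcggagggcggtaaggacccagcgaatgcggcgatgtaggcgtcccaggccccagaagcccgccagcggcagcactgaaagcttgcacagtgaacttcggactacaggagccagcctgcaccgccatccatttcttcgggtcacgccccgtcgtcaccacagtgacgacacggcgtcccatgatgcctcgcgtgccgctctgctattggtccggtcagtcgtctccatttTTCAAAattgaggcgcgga
Gp5: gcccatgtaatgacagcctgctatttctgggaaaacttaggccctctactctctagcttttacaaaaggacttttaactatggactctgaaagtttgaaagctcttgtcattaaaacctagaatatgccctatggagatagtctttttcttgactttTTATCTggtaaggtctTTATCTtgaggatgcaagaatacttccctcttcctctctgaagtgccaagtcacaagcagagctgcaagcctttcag
Gfi1b: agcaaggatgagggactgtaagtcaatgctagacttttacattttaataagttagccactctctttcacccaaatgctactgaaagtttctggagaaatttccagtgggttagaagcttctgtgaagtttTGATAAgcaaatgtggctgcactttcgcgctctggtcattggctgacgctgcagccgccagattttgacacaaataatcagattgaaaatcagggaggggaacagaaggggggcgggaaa
Icam4: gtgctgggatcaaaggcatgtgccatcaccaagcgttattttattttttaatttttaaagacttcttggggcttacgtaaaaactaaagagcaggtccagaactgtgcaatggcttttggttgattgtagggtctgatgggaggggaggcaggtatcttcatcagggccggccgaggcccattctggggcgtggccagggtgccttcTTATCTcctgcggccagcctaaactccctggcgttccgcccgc

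Transcription factors of HSC identity went both ways. Of 33 tested, 3 rose and 9 fell, where 4.06% and 4.78% of all genes tested did, and the median log2 fold change was -0.10. The lower count was 6 without mouse 1 and 5 without the MPP of mouse 1, 2 or 4 or the HSC of mouse 2. Mecom, a factor on which HSC depend, was at 135, 106, 108 and 95.9 CPM in HSC and 124, 119, 114 and 72 in MPP. Meis1, Runx1 and Mecom overlapped between the populations (adjusted p = 0.461, 0.443 and 0.9). Hlf, a stem cell factor often used to mark HSC, was higher in MPP, at 356, 259.9, 335 and 223 CPM in HSC and 607, 582, 843 and 575 in MPP (log2 fold change 1.15 ± 0.17, adjusted p = 0.00119). Hoxa9 and Lmo2 rose by 0.85 ± 0.16 and 0.45 ± 0.13 (adjusted p = 0.00538 and 0.0472). Tcf15, Mycn, Mllt3, Pbx3 and Fli1 fell, at log2 fold changes of -1.1, -0.77, -0.7, -0.75 and -0.47, and Gata2, Gfi1b and Tal1, which also fell, are given above.

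Surface and signature genes of long-term HSC were split. Of 35 tested, 11 fell and 4 rose in MPP. Procr, the protein C receptor EPCR that enriches for HSC, was higher in MPP, at 126, 73.6, 84.5 and 92.7 CPM in HSC and 142, 163, 187 and 169 in MPP (log2 fold change 0.81 ± 0.16, adjusted p = 0.00701). Ltb, Vldlr and Myof also rose, by 1.21, 1.99 and 0.91. Clca3a1 fell most, from 8.71, 24.4, 16.8 and 28 CPM to 0.686, 1.57, 0.458 and 1.1 (log2 fold change -4.38 ± 0.47, adjusted p = 0.00011). Ctnnal1, a catenin-like gene used to mark HSC, was at 46.9, 64.4, 51.6 and 43.8 CPM in HSC and 10.8, 21.8, 11 and 11.8 in MPP (log2 fold change -1.9 ± 0.24, adjusted p = 0.000386). Esam, an endothelial adhesion molecule of HSC, fell by 0.68 ± 0.18 (adjusted p = 0.0302), and Gstm2, Sult1a1, Gda, Trpc6, Cd9 and Pdzk1ip1 were lower at log2 fold changes of -2.76, -2.06, -1.78, -1.22, -1.23 and -0.73. The other members that fell were Itgb3 and Tek, given above. Of 10 imprinted growth genes tested, Ndn, Grb10 and Cdkn1c fell, at log2 fold changes of -0.59, -0.93 and -0.71, and 0 rose, with 1 lower without mouse 1.

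Adhesion genes changed in both directions. Cd34, the sialomucin absent from the most dormant mouse HSC, was at 381, 329.6, 362 and 339 CPM in HSC and 1272, 1109, 1275 and 1073 in MPP. All MPP libraries exceeded all HSC libraries by a wide margin (log2 fold change 1.75 ± 0.12, adjusted p = 2.6e-06). Of 31 adhesion and homing genes, 6 rose and 3 fell, or 9 and 4 with the mouse as a block. All genes tested gave 4.06% and 4.78%, or 7.39% and 8.07% with the block. The lower count was 0 without the MPP of mouse 1 or the HSC of mouse 2 or 4, and 1 without the MPP of mouse 2 or the HSC of mouse 3. Itgb7, Itgal and Alcam, which serve leukocyte adhesion, rose by 1.72 ± 0.28, 1.29 ± 0.35 and 1.09 ± 0.19, and Pecam1 by 0.92 ± 0.21. Icam2 fell by 0.6 ± 0.14 (adjusted p = 0.0191). Cxcr4, the receptor that holds cells in the marrow, was at 13.8, 14.3, 7.59 and 8.27 CPM in HSC and 12.8, 20.2, 9.12 and 17.5 in MPP and did not pass (adjusted p = 0.465).

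In the signalling lists, few members passed. In the TGF-beta and BMP list, 4 of 27 rose and 2 fell, and 2 rose without the HSC or the MPP library of mouse 2. Ldlrad4, an inhibitor of TGF-beta signalling, rose by 3.99 ± 0.62 (adjusted p = 0.00145), and Smad6 and Smad5 by 0.88 and 0.55. Tgfbr3, the co-receptor betaglycan, was at 91.3, 131, 117 and 92.9 CPM in HSC and 25.7, 41.3, 37.5 and 26.7 in MPP (log2 fold change -1.72 ± 0.19, adjusted p = 0.000149), whereas Tgfbr2 rose by 0.66 ± 0.14 (adjusted p = 0.00865). The ligand gene Bmp4 fell from 129 counts in HSC to 5 in MPP (adjusted p = 0.00396). In the Notch list, 0 of 18 rose, or 2 with the mouse as a block, and the target genes Hes1 and Nrarp fell by 1.94 ± 0.44 and 1.43 ± 0.27 (adjusted p = 0.0143 and 0.005), while Notch1 itself stood at a difference of 0.82 ± 0.27 (adjusted p = 0.091).

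Retinoid metabolism differed at several steps. Aldh1a1, the dehydrogenase that makes retinoic acid, was at 119, 149, 108 and 67 CPM in HSC and 15.6, 12.7, 10.9 and 10.3 in MPP (log2 fold change -3.16 ± 0.24, adjusted p = 7.8e-06). Cyp26b1, which breaks retinoic acid down, and the receptor gene Rarb fell by 3.0 ± 0.75 and 1.63 ± 0.44 (adjusted p = 0.0235 and 0.0361). Dhrs3, which returns retinal to retinol, rose from 5.34, 6.06, 5.55 and 5.0 CPM to 26.7, 20.1, 19.2 and 20.8 (log2 fold change 1.98 ± 0.22, adjusted p = 0.000152). These were the 4 of 10 tested that passed, and 1 fell rather than 3 without the MPP of mouse 1 or 2 or the HSC of mouse 2.

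Some interferon response genes and 1 class II gene were higher. Of 41 type I interferon response genes, 10 rose and 1 fell, 16 rose with the mouse as a block, and the median log2 fold change was 0.38. The higher count was 4 without the HSC of mouse 2 or the MPP of mouse 3, 5 without the HSC of mouse 4 and 6 without its MPP. Rtp4 was at 84.6, 53.3, 50.4 and 54.7 CPM in HSC and 156, 121, 151 and 173 in MPP (log2 fold change 1.31 ± 0.18, adjusted p = 6e-04), and Irf7, a master regulator of interferon genes, rose by 0.74 ± 0.2 (adjusted p = 0.0388). Oas2 and Oas3, the antiviral synthetases, rose by 1.26 ± 0.31 and 1.1 ± 0.22. Ifit2 was the member that fell, by 0.77 ± 0.15 (adjusted p = 0.00687). Among 10 class II genes 1 rose, or 4 with the mouse as a block. It was H2-Ob, a modulator of peptide loading, at 1.68 ± 0.18 (adjusted p = 0.000119), and Cd74 at 0.6 ± 0.2 did not pass (adjusted p = 0.0869). In the GIMAP family of lymphocyte GTPases, Gimap7 and Gimap6 rose by 2.77 ± 0.42 and 0.81 ± 0.2, 2 of 8 tested.

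Ribosomal and respiratory genes had medians slightly below 0. Of 79 ribosomal protein genes, 4 fell and 0 rose, with a median of -0.30, where 4.78% of all genes tested fell. With the mouse as a block 19 fell, where 8.07% of all genes did. Without mouse 1, 0 fell, although the median was then -0.36. Of 74 nuclear subunits of oxidative phosphorylation, 2 fell, with a median of -0.27, and 27 fell with the block. Here too 0 fell without mouse 1, with a median of -0.32. Both lists were also at 0 without the MPP of mouse 1 or 3 or the HSC of mouse 2. Such fits rest on fewer libraries. Cox6a1, a subunit of cytochrome oxidase, was at 241, 274, 209 and 272 CPM in HSC and 149, 186, 133 and 190.3 in MPP. The populations did not overlap (log2 fold change -0.6 ± 0.15, adjusted p = 0.0209). Of 29 nucleotide synthesis genes 8 fell and 1 rose. Mthfd2, a mitochondrial folate enzyme of dividing cells, fell by 1.4 ± 0.26 (adjusted p = 0.00411). In glycolysis Hk3, a myeloid hexokinase, rose by 1.82 ± 0.18 (adjusted p = 4.98e-05), and Ldha, lactate dehydrogenase, fell from 1198, 1636, 1375 and 1626 CPM to 730.5, 809.8, 598 and 999 (log2 fold change -0.9 ± 0.16, adjusted p = 0.00375). Myc, at 0.2 ± 0.14, did not pass (adjusted p = 0.476).

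Genes outside these lists included several surface molecules among those with the lowest adjusted p in the higher direction. P2ry14, a receptor for UDP-sugars, was at 19.1, 23.3, 14.7 and 22.2 CPM in HSC and 104, 78, 96.8 and 88.9 in MPP, and Itgb5, an integrin subunit, at 4.64, 1.58, 7.53 and 4.59 and 87.2, 53.2, 72.8 and 60.0. Both were separated without overlap (log2 fold change 2.21 ± 0.18 and 3.88 ± 0.35, adjusted p = 1.13e-05 and 3.19e-05). Cd82, a tetraspanin, rose by 1.5 ± 0.13 (adjusted p = 2.34e-05), and Shisa8 and Arid5a by 1.38 and 1.98. Btla, an inhibitory receptor of lymphocytes, was at 0.281, 1.14, 0.528 and 0 CPM in HSC and 13, 13.6, 25.7 and 33.5 in MPP (log2 fold change 5.42 ± 0.61, adjusted p = 0.000169). Wfdc17 and Wfdc18, small secreted inhibitors, and Tnfsf8, the CD30 ligand, rose by 3.88, 4.24 and 3.95.

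A few genes were at or near 0 in 1 population. Tlr7, the sensor of single-stranded RNA, had 0 counts in HSC and 418 in MPP, at 9.6, 0.862, 6.37 and 8.93 CPM, at least 111-fold higher when HSC are set to a floor of 3 counts over the group. Camsap2, which binds microtubule minus ends, had 1 count in HSC and 405 in MPP, 323-fold higher, with 95% limits from counting error of 57.6 and 12800. Ripor3 had 313 counts in HSC and 0 in MPP, at least 131-fold lower by the same floor. Intervals and floors cover counting error only, since the libraries hold amplified reads. Clu, the clusterin gene, Lpl, lipoprotein lipase, Pde10a and Lhfp fell, at log2 fold changes of -5.94, -4.83, -5.83 and -6.25. Clu was at 30.0, 52.9, 69.1 and 62.3 CPM in HSC and 0.374, 0.783, 1.97 and 0 in MPP, and Tuba8 and Reep2 fell by 3.41 and 3.41.

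Immediate early genes were highest in both libraries of mouse 1. Fos was at 1648, 113, 124 and 271 CPM in HSC and 1718, 214, 186 and 475 in MPP, and Egr1 at 448, 56.3, 50.2 and 46.4 and 225, 29.4, 31.2 and 26.3. In either population the value of mouse 1 was above those of the other mice for both genes. Within each mouse Fos was higher and Egr1 lower in MPP. With the mouse as a block, Egr1 stood at -0.86 (adjusted p = 0.000608). Of 21 tested, 0 passed in either direction, while with the mouse as a block 6 rose and 1 fell and, without mouse 1, 2 rose and 1 fell. The summed level was 7690 CPM in the HSC and 7570 in the MPP of mouse 1, against 2000 to 3160 and 2470 to 4380 in the other mice. This pattern and the bone transcripts of its HSC library are why several counts were also taken without mouse 1.

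**Figure D4:**
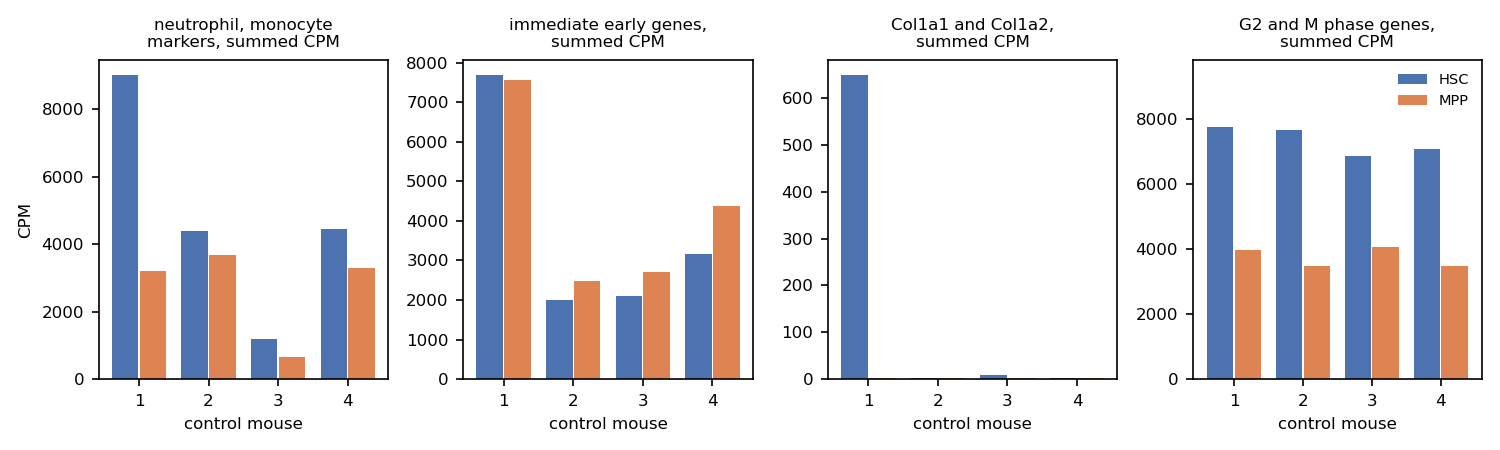
Summed CPM in the HSC (blue) and MPP (orange) libraries of each control mouse, for neutrophil and monocyte markers, immediate early genes, Col1a1 with Col1a2, and G2 and M phase genes. Mouse 1 HSC reach 9020, 7690 and 649 CPM for the former 3, whereas the G2 and M phase sums lie at 6860 to 7730 in HSC and 3460 to 4070 in MPP.

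Markers of other cells gave no further group. Of 12 macrophage markers, 11 were tested and Mertk fell, from 98 counts in HSC to 2 in MPP, 61.4-fold lower with 95% limits from counting error of 16.6 and 515. Of 12 basophil and mast cell markers, 6 were tested and Il4 fell, from 10.4, 15.4, 16.8 and 21.3 CPM to 6.3, 5.88, 8.8 and 8.23 (adjusted p = 0.021). Dendritic cell markers summed to 232 to 310 CPM in HSC and 675 to 736 in MPP, of which Flt3 was the member that passed, and Siglech was at 0. Endothelial and stromal markers summed to 69.3 to 723 CPM in HSC and 110 to 146 in MPP, with Cdh5, Col3a1 and Pdgfra at 0 and the highest sum in mouse 1. Col3a1 was thus at 0 also in the HSC library of mouse 1, which held 224 CPM of Col1a1 and 424 of Col1a2. Of the 7 endothelial and stromal markers tested, Pecam1, given above, was the 1 that rose, against 3 with the mouse as a block. Their part in the results above was not tested.

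The step from HSC to MPP was also measured in the 4 deleted mice, whose libraries share no sample with the control comparison. There 13887 genes were tested, and 89 were higher (0.641%) and 107 lower (0.771%) in MPP. Of the 549 genes higher in control MPP that could be tested, 537 had the same sign in deleted mice and 69 passed, which is 12.5% of the control list and 77.5% of the deleted list. Of the 639 lower ones, 627 had the same sign and 99 passed, or 15.2% and 92.5%, and 0 passed in the opposite direction. Flt3 stood at 3.77 ± 0.35 (adjusted p = 0.000655), Itga2b at -3.83 ± 0.28 (0.000163) and Gata1 at -3.16 ± 0.39 (0.00466). Platelet genes were lower for 15 of 26, with a median of -1.90, and G2 and M phase genes for 7 of 62, with a median of -1.30.

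The difference between the genotypes in this step was tested itself. Over 14561 genes, 0 passed the edgeR interaction test, 417 had an unadjusted p under 0.05, and the smallest adjusted p was 0.978. With the mouse as a block the count was again 0, limma-voom gave 0, and DESeq2 called 2, Dsc2 and Maneal, which are named after their values were seen. Genes that passed in control and not in deleted mice are thus not shown to differ between genotypes. The deleted counts moved with single libraries, from 21 to 105 higher and from 33 to 103 lower genes when each library was left out in turn.

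**Figure D5:**
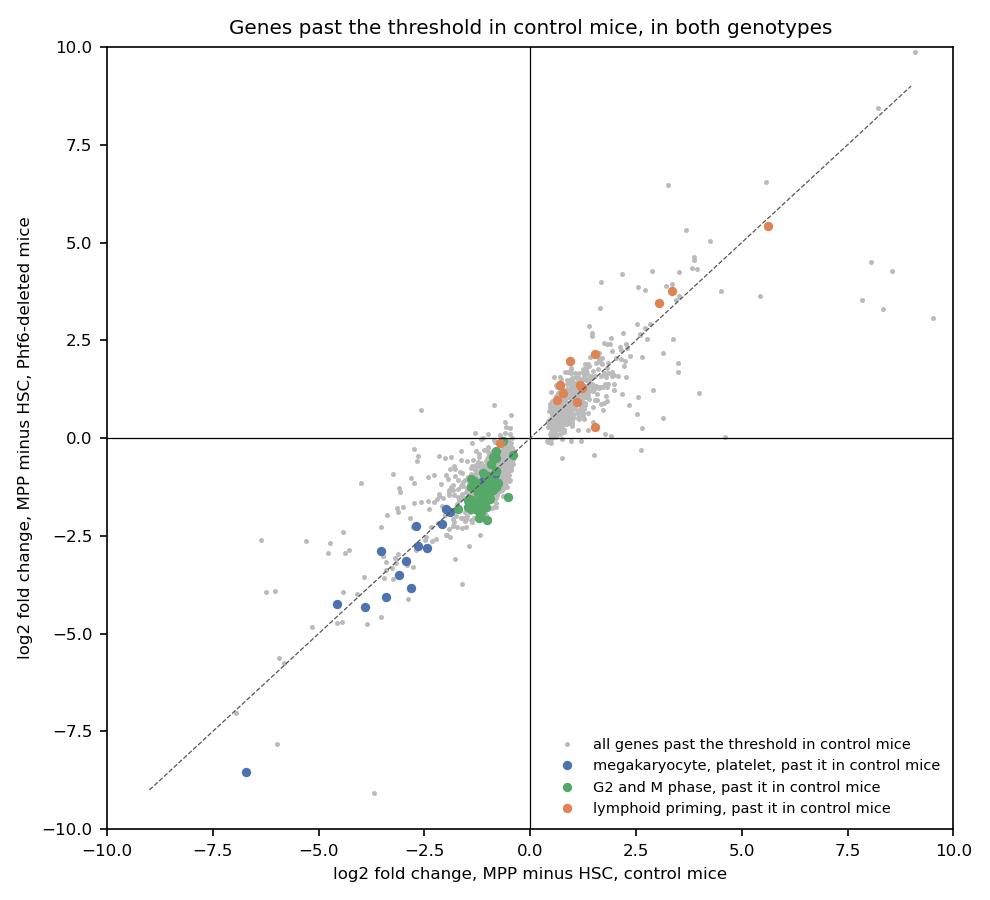
Log2 fold change (MPP minus HSC) of each gene past the threshold in control mice, with control mice on the horizontal and Phf6-deleted mice on the vertical axis and the dashed line at equality. Platelet genes (blue) and G2 and M phase genes (green) lie in the lower left and lymphoid priming genes (orange), except Mef2c, in the upper right, and 537 of 549 higher and 627 of 639 lower genes kept their sign.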

How the data were processed

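The authors deposited whole-number read counts per gene, and per the labels' protocols the cDNA was made with a kit that does not mark strand, so overlapping and antisense genes cannot be told apart. Sequencing gave 80 bp paired end reads, and featureCounts, bcl2fastq and mm10 are named in the submitters' processing notes, without versions. The table holds 27179 genes, of which 1886 identifiers had no name in the tables used, and each of the 24 sample files was identical to its column. Counts were tested with edgeR 4.0.16 (R 4.3.3; TMM scaling, a minimum count of 10 and total of 15 for the low-count filter, robust quasi-likelihood test), adjusted by Benjamini-Hochberg at 0.05, and this tool is meant wherever an adjusted p is given. The scripts were tested on simulated data with 200 changed genes. Replicates differed by 17.8 to 55.5 times the sampling noise (chi-square per degree of freedom).

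Samples were grouped by the labels. HSC and MPP of equal number came from the same mouse per the labels, and deviations from the group means correlated at 0.22, 0.18, 0.36 and 0.21 within mice 1 to 4 against at most 0.025 between mice. Deviations within a group sum to 0, so positive values within mice lower those between mice, which are no independent measure. The unblocked fit is the main one, and the block was an alternative, as were other scalings and filters, DESeq2 1.42.0, limma-voom (limma 3.58.1) and leaving out libraries. Genes were named by lowest adjusted p, largest change and rank within each list, and 57 of the 193 named genes were added after their values were seen. The libraries and gene lists were chosen with earlier results of these data known. The 8 HPC-1 columns were not used, and some list members are not reported here.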

Additional observations from a re-analysis of the deposited data

Results flagged for a closer look

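Gene levels and library measures were checked over the 4 libraries of a population, and mean differences of lists over the 4 mice, 399 groups in all. In 33 groups, all of them gene levels, the highest or lowest library lay apart from the other 3. The gap divided by the range was then above Dixon's critical value of 0.829. For independent values with a normal spread, chance flags about 1 in 20 such groups. CPM levels are often skewed and some groups hold values of 0, so the chance rate here is not known. The HSC library of mouse 1 was the library apart in 12 of the 33 and the MPP library of mouse 1 in 2. The HSC library of mouse 1 was high for Cd27 at 168 CPM (others 148 to 150), Cdkn1b at 13.3 CPM (others 4.92 to 5.72) and Col1a1 at 224 CPM (others 0 to 0.528). It was also high for Col1a2 at 424 CPM (others 2.35 to 8.39), Dntt at 1.69 CPM (others 0 to 0.264) and Egr1 at 448 CPM (others 46.4 to 56.3). It was also high for Fos at 1650 CPM (others 113 to 271), Itgal at 17.2 CPM (others 5.61 to 6.6) and Rtp4 at 84.6 CPM (others 50.4 to 54.7). It was also high for Tal1 at 89.4 CPM (others 63.5 to 64.6). The HSC library of mouse 1 was low for Aqp1 at 32.5 CPM (others 75.6 to 78.5) and Fli1 at 153 CPM (others 183 to 187). The HSC library of mouse 2 was high for Aurkb at 148 CPM (others 137 to 139), Cyp26b1 at 3.95 CPM (others 2.25 to 2.39) and Mycn at 381 CPM (others 278 to 294). The HSC library of mouse 4 was high for Pde10a at 19.4 CPM (others 12.5 to 13), Plac8 at 107 CPM (others 49.5 to 59.2) and Tnfsf8 at 1.53 CPM (others 0 to 0). The MPP library of mouse 1 was high for Egr1 at 225 CPM (others 26.3 to 31.2). The MPP library of mouse 1 was low for Ifngr2 at 36.7 CPM (others 42.2 to 43.1). The MPP library of mouse 2 was high for Ctnnal1 at 21.8 CPM (others 10.9 to 11.8) and Lhfp at 1.25 CPM (others 0 to 0). The MPP library of mouse 3 was high for Dsc2 at 4.95 CPM (others 0 to 0.627), Hlf at 843 CPM (others 575 to 607) and Ifnar2 at 212 CPM (others 167 to 175). It was also high for Mllt3 at 117 CPM (others 75.5 to 78.9) and Trpc6 at 75.1 CPM (others 31 to 38). The MPP library of mouse 3 was low for Mcm5 at 186 CPM (others 276 to 292), Mthfd2 at 4.9 CPM (others 8.07 to 8.38) and S100a8 at 75.3 CPM (others 981 to 1010). The MPP library of mouse 4 was high for Irf7 at 133 CPM (others 73.8 to 82), Itgb7 at 87.9 CPM (others 58.5 to 62) and Myc at 603 CPM (others 408 to 424).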

How the results depend on the processing

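The control counts of 553 higher and 652 lower genes stayed within 1.5 times under other scalings, filters, DESeq2 and limma-voom, from 554 to 803 and from 609 to 890. With the mouse as a replicate block they moved to 1008 and 1101, and in the fit of all 16 libraries to 189 and 211. Leaving out each library in turn gave 377 to 669 higher and 455 to 669 lower genes. In deleted mice the lower count moved to 177 with the block, DESeq2 called 416 higher and 427 lower, and leaving out each library gave 21 to 105 and 33 to 103. DESeq2 called 2 genes for the difference between genotypes, against 0 by the other settings. Another scaling shifted the median of all genes by less than 0.01 on the log2 scale.

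Of 152 called genes named in the text, 84 passed in every setting that gave them an adjusted p, and 0 changed direction. A setting that dropped a gene was not counted against it. Genes that did not pass changed sign in places. Mpo stood at 0.31 with the block, 0.34 with limma-voom and 0.41 without mouse 1. Leaving out each library gave values from -0.43 to 0.48 for Mpo, -2.37 to 0.62 for Egr1, -0.89 to 1.94 for Fos, -0.12 to 0.10 for Mecom and -2.5 to 0.19 for Dsc2. Both ends for Egr1 and Fos came from leaving out a library of mouse 1. In those unpaired fits the other library of mouse 1, also high for both genes, stayed in without its partner. Within each mouse Egr1 was lower and Fos higher in MPP, so these ranges do not describe single mice. The cause was not tested. With the block, counts over 1.5 times the unblocked ones that are not given beside their lists were 5 lower in ribosome biogenesis, 4 higher in Polycomb genes, 3 higher and 2 lower in the tricarboxylic acid cycle, 5 lower in glycolysis, 3 lower among mitochondrially encoded genes and 5 higher among HSC transcription factors, besides lists that moved by 1 member. Over all genes tested, 7.39% rose and 8.07% fell with the block, against 4.06% and 4.78% without it. Without mouse 1, cytokine receptors gave 8 higher and 3 lower, long-term HSC genes 4 and 12, interferon genes 8 and 1, and adhesion genes 8 and 3. The p-values rest on 4 mice.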

Other observations

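Further lists of chromatin and growth regulators were measured in control mice. Over all genes tested, 4.06% rose and 4.78% fell, or 7.39% and 8.07% with the mouse as a block. Where 1 member of a list below passed in a direction, the count lay near or below these shares and is no result about the list. Of 29 Polycomb genes, Phf1 rose by 0.70 and Phf19 and Ezh2, the latter the catalytic methyltransferase, fell, at -0.88 and -0.49. Of 10 genes of DNA methylation and demethylation, Uhrf1 and Dnmt1, which maintain methylation at replication, fell, at -0.78 and -0.58. Of 22 p53 target genes, Sesn2, Sesn1 and Trp53inp1 rose by 0.96, 0.81 and 0.64, and Fas, Gtse1 and Psrc1 fell, at -2.41, -1.62 and -0.95, and 5 rose and 5 fell with the mouse as a block. Of 51 genes of ribosome biogenesis Nolc1 fell by 0.60, and of 22 cholesterol synthesis enzymes Fdps fell by 0.66. Of 17 amino acid transporters, Slc43a2 rose by 1.07 and Slc43a1 fell by 0.67. Of 21 Wnt pathway genes, Tcf7l2 rose by 0.98 and Ryk fell by 0.99. Of 26 autophagy and lysosome genes, 0 passed in edgeR and 3 rose with the mouse as a block. These genes are a description of the control mice, and all values are log2 fold changes of MPP against HSC.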
